A study of Mus musculus with 9 samples.

Results

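Zfp36, Zfp36l1, Zfp36l2, Elavl1, Hnrnpd, Khsrp, Tia1 and Tial1 encode proteins that bind AU-rich elements in messenger RNA. The genes were picked by name for that function, each has 1 probe set of its own on the array, and all 8 passed the filter on low values, among 12873 genes tested of 19938 genes with a probe set. They were picked with earlier results of these data known, among them the fall of Zfp36 with the mimic, so their values and calls are a description. NIH-3T3 cells, a mouse embryonic fibroblast line, had been transfected with 25 nM of a mimic of miR-378-3p (3 arrays), of an inhibitor of this microRNA (3 arrays) or of a RISC-free control siRNA, which the silencing complex does not take up (3 arrays), and total RNA was profiled 48 hours later on Affymetrix arrays. All groups received the same transfection reagent and dose, and no untransfected cells, mimic or inhibitor of another sequence were among the samples analysed here. Effects of miR-378-3p and responses to an active mimic or inhibitor as such therefore cannot be told apart. The labels do not say whether the 3 arrays of a group came from separate cultures, and the spread that the p-values measure is that between arrays and may be technical.

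AU-rich elements are stretches of A and U in the tails of many short-lived messages, such as those of cytokines and early growth response genes. Proteins of the Zfp36 family bind them through a pair of zinc fingers and recruit the deadenylation and decapping machinery, so that the message is destroyed. HuR, the product of Elavl1, binds similar elements and protects the message, Khsrp promotes decay, the isoforms of Hnrnpd (AUF1) can do either, and Tia1 and Tial1 hold back translation and collect in stress granules. In fibroblasts Zfp36 is itself an early gene that serum switches on.

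Values are log2 RMA values, in which a difference of 1 is a doubling of the signal, and they were not compared between genes, since each probe set has its own brightness. Fibroblast markers were bright, with 9 of 10 tested and group means of 6.76 (Thy1, controls) to 11.3 (Col1a2, controls). Of 6 macrophage markers, Ptprc, Adgre1, Cd14 and Lyz2 lay below the level filter of 3.77, and Cd68 and Csf1r had group means of at most 4.25. Among epithelial, endothelial and muscle markers, Epcam, Cdh5, Kdr, Myog and Des lay below the filter. Krt8, Krt18, Cdh1, Pecam1 and Myod1 passed it with group means of at most 4.36, and Acta1 passed with up to 5.05 (mimic). The median over all probe sets was 3.94 to 4.03 on the 9 arrays. The 75th percentile was 5.55 on mimic 3 and 5.76 on inhibitor 1, against 5.64 to 5.65 on the control arrays. On inhibitor 2 and inhibitor 3 it was 5.67 and 5.69, and on mimic 1 and mimic 2 5.63 and 5.66. Mimic 3 and inhibitor 1 stood apart, with scores of -20.6 and 21.0 on the first principal component, which held 60.1% of the variance, while the 7 other arrays lay between -9.16 and 13.4. For many of the results that rest on these arrays, values without them are given as well.

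Zfp36 (gene ID 22695) encodes tristetraprolin, the founding member of the family. Its log2 value was 5.40, 5.30 and 5.22 in the mimic arrays and 5.33, 5.29 and 5.34 in the inhibitor arrays, against 5.79, 5.91 and 6.03 in the control arrays. Every mimic and inhibitor array lay below every control array, and the mimic and inhibitor arrays overlapped.

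Zfp36 averaged 5.30 ± 0.09 with the mimic and 5.91 ± 0.12 in the controls (log2, SD, n = 3 each). The difference of -0.61 ± 0.07 (SE; limma, adjusted p = 0.00200) means that its signal fell by 34.5% on the linear scale. With the inhibitor it averaged 5.32 ± 0.03 (log2, SD, n = 3) and fell by 0.60 ± 0.07 against the same controls (SE; limma, adjusted p = 0.000564), or fell by 33.9%. Zfp36 was the 1 member that fell in each of the comparisons with the control, which share the control arrays. Mimic and inhibitor differed by -0.01 ± 0.07 (log2, SE; limma, adjusted p = 0.910), which does not show that their levels were alike. Without mimic 3 and inhibitor 1 the log2 differences from the controls were -0.57 with the mimic and -0.60 with the inhibitor (limma, adjusted p = 0.00264 and 0.000586).

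The bases before the start of Zfp36 are shown because its level differed most of the 8 genes, and those of its relative Zfp36l1 because it was not called in either comparison with the control. Zfp36l1 is not shown as an unchanged gene. Its mimic arrays lay below all its controls, and it was called between mimic and inhibitor (limma, adjusted p = 0.0428). Hnrnpd, Tia1 and Tial1 were not called against the controls either. They are the 250 bases before each start in RefSeq's mouse genes (GRCm38.p6), 5′ to 3′ on the gene's strand, which is the minus strand for both, at chr7:28379229-28379478 for Zfp36 and chr12:80113014-80113263 for Zfp36l1. Of the 8 genes 7 had such a window, and Zfp36l2 was not among them. Capitals mark every match to 1 of 5 motifs, chosen after the windows had been seen: the CArG box, which serum response factor binds, the EGR site GCGGGGGCG, the cyclic AMP response element TGACGTCA and the AP-1 site TGANTCA on both strands, and the TATA box TATAAA on the gene's strand.
Zfp36: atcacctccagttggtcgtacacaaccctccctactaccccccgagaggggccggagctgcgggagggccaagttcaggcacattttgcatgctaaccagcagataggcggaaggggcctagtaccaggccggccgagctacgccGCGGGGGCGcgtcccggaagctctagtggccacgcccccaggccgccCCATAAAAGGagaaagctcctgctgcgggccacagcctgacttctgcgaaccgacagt
Zfp36l1: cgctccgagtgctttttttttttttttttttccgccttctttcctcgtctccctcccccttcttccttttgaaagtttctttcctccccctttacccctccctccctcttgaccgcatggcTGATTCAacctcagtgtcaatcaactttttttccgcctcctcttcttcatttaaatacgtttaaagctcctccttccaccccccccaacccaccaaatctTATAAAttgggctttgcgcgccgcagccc

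The window of Zfp36 held a CArG box, CCATAAAAGG, at positions -58 to -49, counted back from -1 at the base before the start, and an EGR site at -105 to -97. A CArG box was found in 482 of 32851 windows of this length (1.47%) and an EGR site in 845 (2.57%). Among 29 windows of serum-induced early genes, the CArG box and the EGR site were each found in 6 (20.7%), the cyclic AMP response element in 3 (10.3%), the TATA box in 2 (6.90%) and the AP-1 site in 0, and these windows covered 23 of the 29 genes of that list. The window of Zfp36l1 held TGATTCA at -129 to -123, a match to the AP-1 pattern TGANTCA, in which N is any base (6.75% of all windows). It also held a TATA box at -29 to -24 (7.59%), and no match to a CArG box or an EGR site. The windows of Elavl1, Hnrnpd, Khsrp, Tia1 and Tial1 held no match to any of the 5 motifs, and the cyclic AMP response element was found in none of the members' windows and in 1.55% of all. A match of letters is a description of the window and not a bound site.

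**Figure D1:**
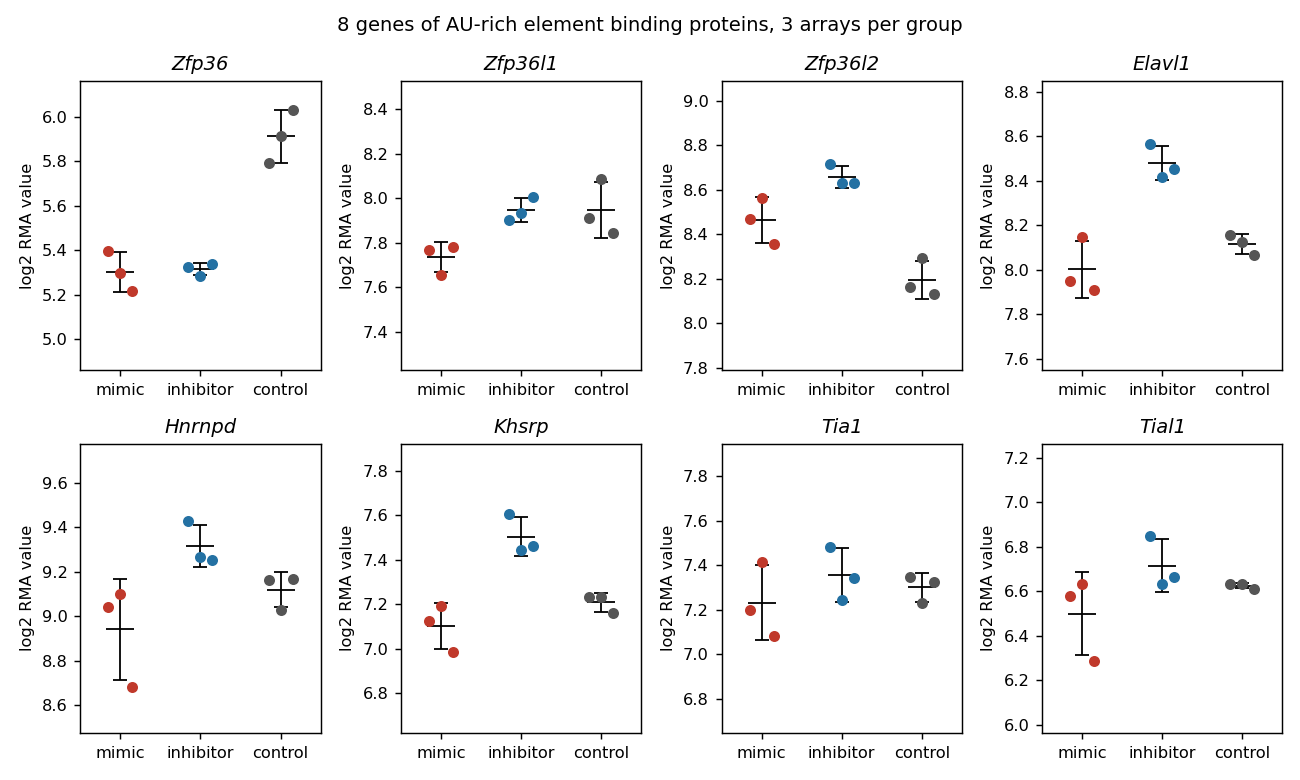
Log2 RMA values of the 8 genes (y axis, each panel spanning the same log2 range) on the 3 mimic, 3 inhibitor and 3 control arrays (points), with the mean (dash) and the SD (bars). Zfp36 lies at 5.22 to 5.40 with the mimic and at 5.29 to 5.34 with the inhibitor, below the controls at 5.79 to 6.03, whereas Zfp36l2 lies above its controls in both groups.

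Zfp36l1 (gene ID 12192) and Zfp36l2 (gene ID 12193) encode the other family members on the list, which share the zinc fingers and recruit the same decay machinery. Zfp36l2 had log2 values of 8.47, 8.56 and 8.35 with the mimic and 8.71, 8.63 and 8.63 with the inhibitor, against 8.16, 8.29 and 8.13 in the controls. Each mimic array thus lay above each control array, and each inhibitor array above each mimic array. With the inhibitor Zfp36l2 averaged 8.66 ± 0.05, against 8.19 ± 0.09 in the controls (log2, SD, n = 3 each), and rose by 0.46 ± 0.06 (SE; limma, adjusted p = 0.00156). Within the family, Zfp36 and Zfp36l2 thus moved in opposite directions with the inhibitor.

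With the mimic Zfp36l2 averaged 8.46 ± 0.10 (log2, SD, n = 3), a log2 difference of 0.27 ± 0.06 from the controls that did not pass the threshold (SE; limma, adjusted p = 0.0557). It passed without mimic 3 (log2 difference 0.32; limma, adjusted p = 0.0174), without mimic 3 and inhibitor 1 (0.32; adjusted p = 0.0123) and after quantile normalization (0.28; adjusted p = 0.0111). The direct difference between mimic and inhibitor was -0.20 ± 0.06 (log2, SE; limma, adjusted p = 0.0520), and it passed without mimic 2 (-0.25; adjusted p = 0.0212).

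Zfp36l1 had log2 values of 7.77, 7.66 and 7.78 with the mimic and 7.90, 7.94 and 8.005 with the inhibitor, against 7.91, 8.09 and 7.845 in the controls. The mimic arrays lay below all others, and the inhibitor arrays lay within the range of the controls. Its log2 difference from the controls was -0.21 ± 0.07 with the mimic (SE; limma, adjusted p = 0.140) and -0.0004 ± 0.07 with the inhibitor (adjusted p = 0.998), neither past the threshold. Set directly against the inhibitor, the mimic arrays were lower by a log2 difference of -0.21 ± 0.07 (SE; limma, adjusted p = 0.0428). That call ended without control 1, mimic 1, mimic 2, inhibitor 1, inhibitor 2 or inhibitor 3, each left out alone, with limma's adjusted p at 0.0638, 0.0772, 0.106, 0.0655, 0.0782 and 0.139, and after quantile normalization (adjusted p = 0.421). It also ended with no filter on low values (limma, adjusted p = 0.0603) and with moderation along an intensity trend (adjusted p = 0.0571).

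Elavl1 (gene ID 15568) encodes HuR, which binds AU-rich elements and stabilizes the message. Its log2 values were 7.95, 8.14 and 7.91 with the mimic and 8.56, 8.42 and 8.45 with the inhibitor, against 8.15, 8.12 and 8.07 in the controls. The inhibitor arrays lay above all 6 others, and the mimic arrays overlapped the controls. With the inhibitor Elavl1 averaged 8.48 ± 0.08, against 8.11 ± 0.04 in the controls (log2, SD, n = 3 each), and rose by 0.36 ± 0.07 (SE; limma, adjusted p = 0.00690). With the mimic the log2 difference from the controls was -0.11 ± 0.07 (SE; limma, adjusted p = 0.492). Mimic against inhibitor gave a log2 difference of -0.48 ± 0.07 (SE; limma, adjusted p = 0.000913), and without mimic 3 and inhibitor 1 the rise with the inhibitor was 0.32 (adjusted p = 0.00678). Over all alternatives the difference between mimic and inhibitor lay between -0.55 and -0.39.

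Khsrp (gene ID 16549) encodes a decay-promoting protein with KH domains that brings the exosome to AU-rich messages. It had log2 values of 7.13, 7.19 and 6.99 with the mimic and 7.61, 7.44 and 7.46 with the inhibitor, against 7.235, 7.23 and 7.16 in the controls. As for Elavl1, the inhibitor arrays lay above all others and the mimic arrays overlapped the controls. With the inhibitor Khsrp averaged 7.50 ± 0.09, against 7.21 ± 0.04 in the controls (log2, SD, n = 3 each), and rose by 0.29 ± 0.06 (SE; limma, adjusted p = 0.0151). That call ended without control 3 (0.27; limma, adjusted p = 0.0676) and without inhibitor 1 (0.24; adjusted p = 0.0525), and held without mimic 3 and inhibitor 1 together (0.24; adjusted p = 0.00636). With the mimic the log2 difference from the controls was -0.11 ± 0.06 (SE; limma, adjusted p = 0.498), and mimic against inhibitor gave -0.40 ± 0.06 (adjusted p = 0.00175). Over all alternatives the latter lay between -0.45 and -0.28.

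Hnrnpd (gene ID 11991) encodes the AUF1 isoforms. Its log2 values were 9.04, 9.10 and 8.68 with the mimic and 9.43, 9.27 and 9.25 with the inhibitor, against 9.16, 9.03 and 9.17 in the controls. Mimic 3 was the lowest and the 3 inhibitor arrays were the highest of the 9. Neither log2 difference from the controls passed the threshold, at -0.18 ± 0.10 with the mimic and 0.20 ± 0.10 with the inhibitor (SE; limma, adjusted p = 0.461 and 0.250). The difference with the inhibitor passed in the fit without mimic 3 (adjusted p = 0.0411). Mimic against inhibitor gave a log2 difference of -0.38 ± 0.10 (SE; limma, adjusted p = 0.0218), which was -0.19 without mimic 3 and inhibitor 1 (adjusted p = 0.0437) and was not called without inhibitor 1 alone (-0.32; adjusted p = 0.0860) or in a fit of the 6 arrays of these groups (adjusted p = 0.0582).

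Tia1 (gene ID 21841) and Tial1 (gene ID 21843) encode the translational repressors of stress granules. Tia1 had log2 values of 7.20, 7.42 and 7.08 with the mimic and 7.48, 7.24 and 7.34 with the inhibitor, against 7.35, 7.23 and 7.33 in the controls. Tial1 had 6.58, 6.63 and 6.29 with the mimic and 6.85, 6.63 and 6.67 with the inhibitor, against 6.63, 6.63 and 6.61 in the controls. Its value was the same, 6.6315, on mimic 2, inhibitor 2, control 1 and control 2, and the SD of its controls was only 0.01. For both genes mimic 3 was the lowest array and inhibitor 1 the highest, and each mimic and inhibitor group otherwise overlapped the controls. The log2 differences of Tia1 from the controls were -0.07 ± 0.09 with the mimic and 0.06 ± 0.09 with the inhibitor (SE; limma, adjusted p = 0.794 and 0.755), and those of Tial1 were -0.13 ± 0.09 and 0.09 ± 0.09 (adjusted p = 0.581 and 0.582). Fitted without mimic 3 and inhibitor 1, they were 0.01 and -0.01 for Tia1 and -0.02 and 0.02 for Tial1. Mimic against inhibitor gave -0.12 ± 0.09 for Tia1 and -0.22 ± 0.09 for Tial1 (log2, SE; limma, adjusted p = 0.340 and 0.106), and the value of Tial1 passed without mimic 2 (-0.28; adjusted p = 0.0438).

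**Figure D2:**
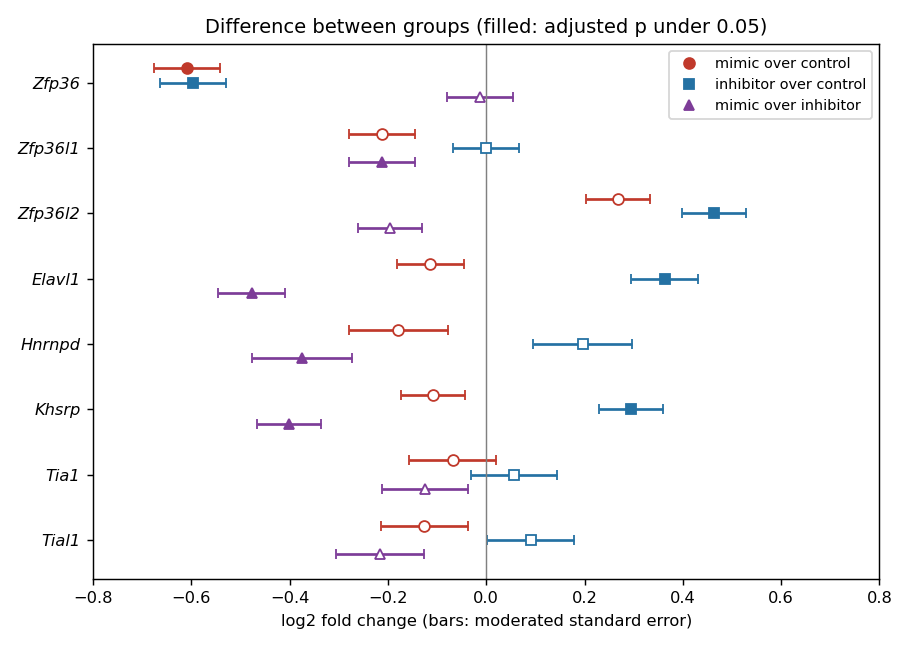
Log2 fold change (x axis) of the 8 genes (y axis) for mimic over control (circles), inhibitor over control (squares) and mimic over inhibitor (triangles), with moderated standard errors as bars and filled symbols for an adjusted p under 0.05. Zfp36 lies at -0.61 and -0.60 against the controls and at -0.01 between mimic and inhibitor, while Zfp36l2, Elavl1 and Khsrp lie at 0.46, 0.36 and 0.29 with the inhibitor.

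Of the 8 genes, 1 fell and 0 rose with the mimic (limma), beside 3.15% of all genes tested that were called in that comparison (1.01% rose and 2.14% fell). With the inhibitor 3 rose and 1 fell, beside 13.7% of all genes called (10.2% rose and 3.49% fell). Mimic against inhibitor gave 4 lower members, Zfp36l1, Elavl1, Hnrnpd and Khsrp, and 0 higher, beside 24.7% of all genes called (6.36% higher and 18.3% lower). The groups did not overlap in 3 members with the mimic (20.5% of all genes), in 5 with the inhibitor (36.0%) and in 5 between mimic and inhibitor (36.9%). The median log2 difference of the 8 genes was -0.12 with the mimic, 0.14 with the inhibitor and -0.21 between mimic and inhibitor, beside medians over all genes tested of -0.004, 0.007 and -0.005. The medians and the shares over all genes take in dim and bright genes alike, here and beside the lists below. Medians of the members and of the lists below were not taken after quantile normalization. After quantile normalization of the arrays the calls over all genes were 334 higher and 438 lower with the mimic (130 and 275 as deposited), 1271 and 1010 with the inhibitor (1316 and 449) and 1657 and 2014 between them (819 and 2357), while the members called were 2, 4 and 3.

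Mimic 3 was the lowest and inhibitor 1 the highest of the 9 arrays for each of Elavl1, Hnrnpd, Khsrp, Tia1 and Tial1, an order found in 20.3% of all genes tested. The median of the 8 genes against the control mean was -0.22 on mimic 3 and 0.27 on inhibitor 1 (log2), and between -0.09 and 0.10 on the 7 other arrays. The part of these arrays in the differences was not tested beyond the fits without them.

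**Figure D3:**
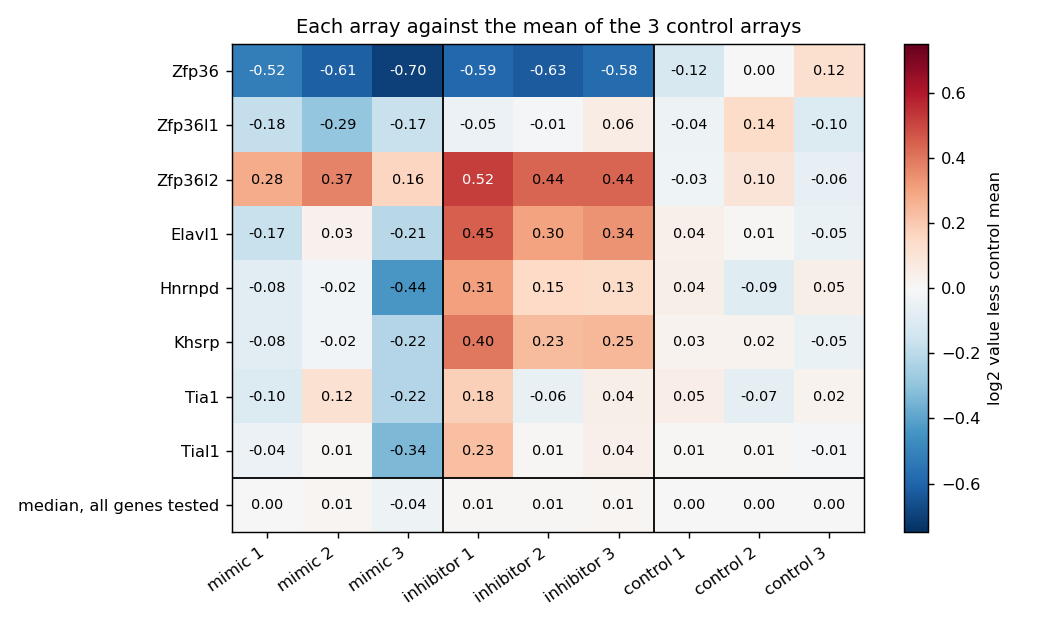
Log2 value of each gene (rows) on each array (columns) less the mean of the 3 control arrays (colour and printed number), with the median over all genes tested in the bottom row. Zfp36 lies between -0.70 and -0.52 on all 6 mimic and inhibitor arrays, and the lower 5 genes are lowest on mimic 3 and highest on inhibitor 1.

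The 5 genes whose values over the 9 arrays lay closest to those of Zfp36 were Fos, Hddc3, Ccng2, Ier2 and Eno2, with root mean square differences of 0.12 to 0.14 (log2) after each gene's own mean was taken off. Fos, which encodes an AP-1 subunit, and Ier2, an early response gene, are serum-induced like Zfp36, and Ccng2 encodes an unconventional cyclin. Against the controls Fos fell by 0.37 with the mimic and fell by 0.43 with the inhibitor, and Ier2 fell by 0.45 and fell by 0.33 (log2; limma, adjusted p of at most 0.00579). Hddc3 fell by 0.38 and fell by 0.50, and Eno2, which encodes an enolase, fell by 0.41 in each comparison (log2; limma, adjusted p of at most 0.0132). Ccng2 fell by 0.39 and fell by 0.41 (log2; limma, adjusted p = 0.0352 and 0.0114). The calls of Fos, Ier2 and Hddc3 held in all 9 leave-one-out fits in both comparisons, though Fos lay close to the level filter, with a mean of 3.94 with the inhibitor and 4.37 in the controls. With the mimic the call of Eno2 held in 6, ending without control 1, control 2 or mimic 1 (limma, adjusted p of up to 0.0706), and that of Ccng2 in 4 (adjusted p of up to 0.132). The mimic call of Ccng2 also ended with no filter on low values, after median centring and in a fit of the 6 arrays of these groups (limma, adjusted p = 0.0616, 0.0858 and 0.0790). These genes were picked for their likeness, so this is a description.

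Of 27 serum-induced early genes tested, a list without Zfp36, 6 rose and 2 fell with the mimic, with a median log2 difference of 0.12, and 14 rose and 2 fell with the inhibitor, with a median of 0.24. Over all genes tested, 1.01% rose and 2.14% fell with the mimic, 10.2% rose and 3.49% fell with the inhibitor, and the medians were -0.004 and 0.007. After quantile normalization 7 of the early genes rose and 2 fell with the mimic, and 11 rose and 4 fell with the inhibitor. Without mimic 3 and inhibitor 1, 8 rose and 2 fell with the mimic, and 15 rose and 3 fell with the inhibitor. In the values as deposited, with all 9 arrays, the falls were those of Fos and Ier2 in each comparison. Nr4a1, an orphan nuclear receptor, rose by 1.10 with the mimic and by 1.25 with the inhibitor, and Klf4, a zinc finger factor, by 0.43 and 1.19 (log2; limma, adjusted p of at most 0.0284). Klf2 rose by 0.53 with the mimic, and Myc and Klf10 rose by 1.16 and 0.84 with the inhibitor (log2; limma, adjusted p of at most 0.00400). The mimic call of Klf4 held in 4 of the 9 leave-one-out fits (adjusted p of up to 0.0862), and ended with no filter on low values, after median centring and in the 6-array fit (adjusted p of up to 0.0664).

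Of 48 messages reported to carry AU-rich elements or to be bound by Zfp36 proteins, 35 were tested, and 18 rose and 1 fell with the inhibitor, with a median log2 difference of 0.20, beside 10.2% that rose, 3.49% that fell and a median of 0.007 over all genes tested. Ereg, which encodes the growth factor epiregulin, rose by 1.93 ± 0.10. The cyclin D1 gene Ccnd1 rose by 1.14 ± 0.12, Inhba, an activin subunit, by 1.21 ± 0.08 and Myc, a growth regulator, by 1.16 ± 0.09 (log2, SE; limma, adjusted p of at most 0.000455). Fos was the 1 that fell. With the mimic 1 rose and 2 fell, with a median of 0.01, beside 1.01% and 2.14% of all genes and a median of -0.004. Plaur, the urokinase receptor, rose by 0.33, and Fos and the chemokine gene Ccl7 fell by 0.37 and fell by 0.31 (log2; limma, adjusted p of at most 0.0153). Ccl7 rose by 0.35 with the inhibitor (log2; limma, adjusted p = 0.00200). Without mimic 3 and inhibitor 1 the mimic counts were 5 higher and 2 lower, and those of the inhibitor 18 and 2, and after quantile normalization they were 3 and 3 with the mimic and 18 and 3 with the inhibitor. The mimic calls of Plaur and Ccl7 held in 5 and 6 of the 9 leave-one-out fits (adjusted p of up to 0.0737 and 0.0662). The list was written with some of these changes known, and message stability was not measured. It shares Fos, Jun, Junb, Egr1, Ier3, Myc and Dusp1 with the list of early genes, so the counts of these lists are not separate.

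Deadenylases, decapping enzymes and the exosome destroy the messages that Zfp36 proteins bind. Over all genes tested 3.15% were called with the mimic (2.14% fell) and 13.7% with the inhibitor (10.2% rose). The counts of the lists stand beside these shares, which take in dim and bright genes alike. Shares among genes as bright as those of the lists were not taken. Of 19 deadenylation genes tested, Tob1, which links the deadenylase to its targets, fell by 0.29 with the mimic (log2; limma, adjusted p = 0.0132), with a list median of -0.06. With the inhibitor Btg2, a relative of Tob1, rose by 0.49, and the CCR4-NOT genes Cnot6l and Cnot11 by 0.41 and 0.28 (log2; limma, adjusted p = 0.0120, 0.0170 and 0.0407), with a list median of 0.10. The call of Btg2 ended without control 1 (limma, adjusted p = 0.0568), and those of Tob1, Cnot6l and Cnot11 held in 6, 5 and 2 leave-one-out fits of 9 (adjusted p of up to 0.0696, 0.0714 and 0.144). Of 19 decapping and 5′ decay genes, 0 were called in either comparison with the control (limma; 3 with the mimic and 7 with the inhibitor had an unadjusted p under 0.05), with medians of -0.08 and 0.09, and without mimic 3 and inhibitor 1 there was 1 lower in each. Of 15 exosome and 3′ decay genes, 0 were called with the mimic (limma; 3 with an unadjusted p under 0.05), and 3 rose with the inhibitor, with medians of -0.09 and 0.13. These were the exosome nuclease gene Dis3 (0.48), Exosc2 (0.42) and Exosc9 (0.29), with limma's adjusted p at 0.00937, 0.0202 and 0.0422. Leaving out each array in turn, Dis3 was called in all 9 fits, Exosc2 in 4 and Exosc9 in 3 (adjusted p of up to 0.0794 and 0.145). With no filter on low values and after median centring the calls of Cnot11 and Exosc9 ended (limma, adjusted p of up to 0.0663 and 0.0710), and that of Cnot11 also ended after quantile normalization (adjusted p = 0.0553).

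Among 26 other proteins that bind AU-rich or neighbouring tail sequences, 0 were called with the mimic (limma; 6 with an unadjusted p under 0.05) and 10 rose with the inhibitor, with median log2 differences of -0.08 and 0.22, beside 3.15% of all genes called with the mimic and 10.2% that rose with the inhibitor. Mex3c, an RNA-binding ubiquitin ligase, rose by 0.55 ± 0.09, Igf2bp1, a message-stabilizing protein, by 0.52 ± 0.10, Pum2, a translational repressor, by 0.45 ± 0.07 and Celf1, which binds GU-rich elements, by 0.44 ± 0.09 (log2, SE; limma, adjusted p of at most 0.00952). These 4 calls held in all 9 leave-one-out fits. The rise of Igf2bp1 was 0.26 where all probe sets of a gene were averaged (limma, adjusted p = 0.0185). Without mimic 3 and inhibitor 1 the counts were 1 higher and 0 lower with the mimic, and 13 higher and 1 lower with the inhibitor, and after quantile normalization 1 higher and 2 lower, and 12 higher and 0 lower.

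Activity of Zfp36 proteins is also set by kinases, phosphatases and 14-3-3 proteins, since phosphorylated forms are held by 14-3-3 proteins away from the decay machinery. Of 20 such genes tested, 0 rose and 2 fell with the mimic, with a median log2 difference of -0.04, and 3 rose and 0 fell with the inhibitor, with a median of 0.10. The inhibitor count lies close to the share of all genes called (13.7%, with 10.2% that rose), and with the mimic 3.15% of all genes were called. Akt1, whose kinase phosphorylates Zfp36l1, fell by 0.52 ± 0.06 with the mimic (log2, SE; limma, adjusted p = 0.00220), and Map2k6, a kinase upstream of p38, fell by 0.36 (adjusted p = 0.0251). Mapkapk2, whose kinase acts on tristetraprolin downstream of p38, rose by 0.45 ± 0.08 with the inhibitor (log2, SE; limma, adjusted p = 0.00524), the 14-3-3 gene Ywhag by 0.29 and Mapkapk3 by 0.21 (adjusted p = 0.00407 and 0.0182). The calls of Akt1, Mapkapk2 and Ywhag held in all 9 leave-one-out fits, and those of Mapkapk3 and Map2k6 in 5 and 4 (adjusted p of up to 0.0804 and 0.110), and that of Map2k6 ended after median centring (limma, adjusted p = 0.0666). Without mimic 3 and inhibitor 1 6 rose with the inhibitor, and after quantile normalization 7 rose and 1 fell. Phosphorylation was not measured.

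Mimic and inhibitor were also set directly against each other, where 24.7% of all genes were called (18.3% lower and 6.36% higher with the mimic). The mimic was lower in 8 of 19 deadenylation genes, 5 of 19 decapping genes, 7 of 15 exosome genes, 13 of 26 other binding proteins, 9 of 20 kinases, phosphatases and 14-3-3 genes and 17 of 35 reported AU-rich messages, and higher in 0 of each (limma). Among 27 early genes the mimic was lower in 9 and higher in 2. Mex3c differed by -0.92 ± 0.09, Akt1 by -0.61 ± 0.06, Exosc2 by -0.56 ± 0.10 and Cnot9, a CCR4-NOT subunit, by -0.53 ± 0.09 (log2, SE; limma, adjusted p of at most 0.00292). Ereg differed by -1.64 ± 0.10, Ptgs2, which encodes the inducible cyclooxygenase, by -1.04 ± 0.12, and Dusp6, a phosphatase of ERK kinases, by -0.64 ± 0.09 (log2, SE; limma, adjusted p of at most 0.00100). These 7 calls held in all 9 leave-one-out fits. Up to 4 called genes per pathway list, those with groups apart and the largest differences, were followed in this way. Among them the calls of Cnot6l, Patl1, Lsm14b and Exosc8 held in 8 fits, and those of Cnot6, Map2k3 and Ywhah in 7. Those of Eif4enif1 and Ttc37 held in 6 and 5, and the rest in all 9. The calls of Patl1, Lsm14b, Cnot6, Map2k3, Ywhah, Eif4enif1 and Ttc37 ended in a fit of the 6 arrays of these groups. Those of Exosc8, Cnot6, Eif4enif1 and Ttc37 ended without mimic 3 and inhibitor 1. The call of Lsm14b also ended after quantile normalization, and that of Map2k3 with no filter on low values. Averaging all probe sets of a gene ended those of Ywhah and Eif4enif1. With mimic 3 and inhibitor 1 left out, the mimic was lower in 4 deadenylation genes, 4 decapping genes and 5 exosome genes. In that fit it was lower in 9 other binding proteins and higher in 1, and lower in 14 of the reported messages and higher in 1. It was also lower in 7 kinases, phosphatases and 14-3-3 genes, and among the early genes lower in 10 and higher in 2. After quantile normalization it was lower in 4 deadenylation genes, 4 decapping genes and 11 other binding proteins, and higher in 1 of each.

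**Figure D4:**
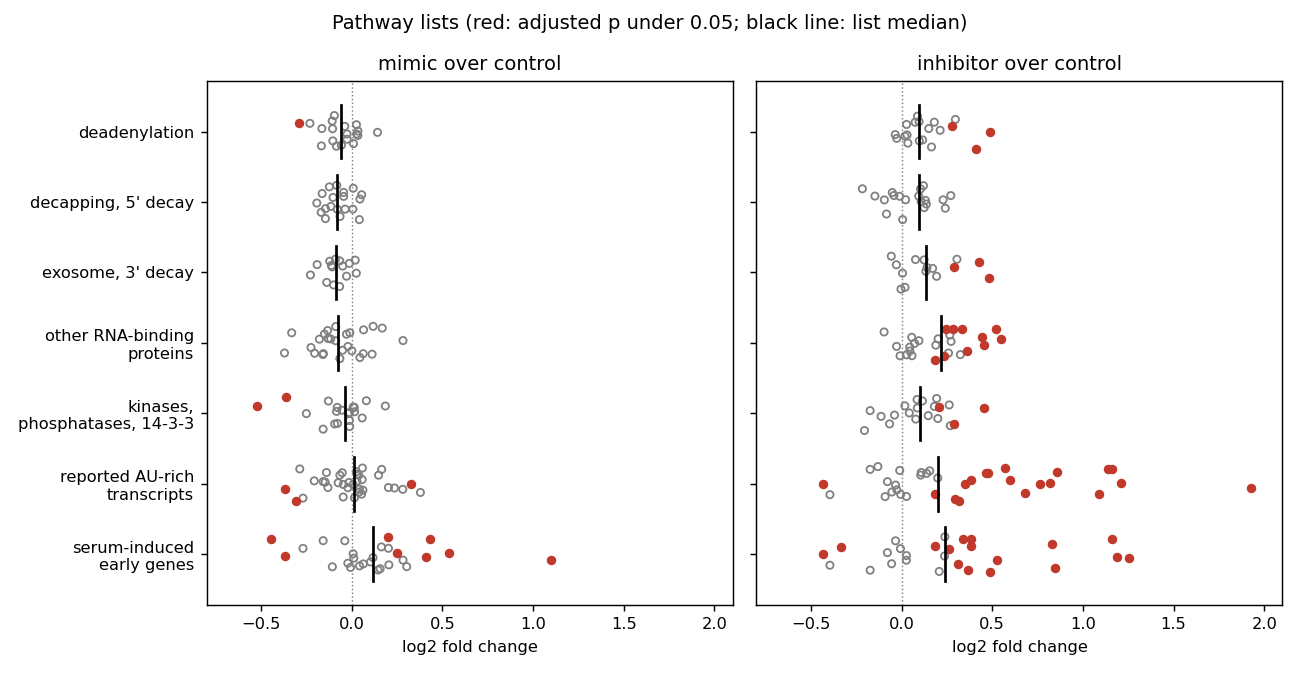
Log2 fold change (x axis) of the genes of 7 pathway lists (rows), for mimic over control (left) and inhibitor over control (right), with 1 point per gene, red for an adjusted p under 0.05, and a black line at the list median. With the inhibitor 18 of 35 reported AU-rich messages and 14 of 27 serum-induced early genes lie to the right in red, and with the mimic 1 and 6 do. Some genes stand in more than 1 list, such as Fos, Myc and Btg2.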

How the data were processed

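RNA of NIH-3T3 cells in 3 groups of 3 was measured on Affymetrix arrays. The authors deposited log2 values, 1 per probe set and array (28853 probe sets, 2.64 to 12.5), and the submitters' processing notes name Partek 6.5 and RMA. No genome build is named in the sources used here. The number of arrays limits the precision. Genes were named from probe sets with 1 gene (21789; 1621 had several and 5443 were unnamed), taking the probe set of highest mean where a gene had several (999 genes). A gene was tested where its mean reached the 40th percentile of all probe sets (3.77). A linear model of all 9 arrays was fitted with limma 3.58.1 in R 4.3.3, and a call needed a p-value under 0.05 after Benjamini-Hochberg adjustment over 12873 genes. The fit was also run on simulated data, with the noise of each gene and array drawn on its own. Those data held no shift shared by many genes on an array, as on mimic 3 and inhibitor 1. The run therefore cannot check the calls for such a shift. Members, gene lists and tests were chosen with earlier results of these data known. Named are all 8 members, the 5 genes closest to Zfp36, and called genes of the pathway lists whose groups did not overlap. Of these, up to 4 per list, ranked by log2 difference, are given for each comparison with the control. Between mimic and inhibitor only some of the genes ranked in this way are given with their values. Lists are described by counts and medians, without a set test. The alternatives were other filters, scalings, fits and probe set summaries, a minimum fold of 1.5 and fits without single arrays. Promoter windows came from RefSeq, matched by symbol. Figures were drawn with matplotlib 3.10.9.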

Additional observations from a re-analysis of the deposited data

How the results depend on the processing

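The count of genes called with the mimic was 405 (limma), and it was 772 after quantile normalization, 223 after median centring, 243 in a fit of the 6 arrays compared, 36 with a fold of at least 1.5, 895 without mimic 3 and inhibitor 1, and 129 to 569 with each array left out in turn (129, 165 and 143 without control 1, control 2 and control 3, 180 without mimic 1 and 266 without inhibitor 3). With the inhibitor 1765 genes were called, against 191 at 1.5-fold and 945 to 2760 with an array left out (945, 1032 and 980 without control 1, control 2 and control 3, 1091 and 1016 without inhibitor 1 and inhibitor 3, and 2760 without mimic 3), and between mimic and inhibitor 3176, against 410 at 1.5-fold and 2289 to 3661. The members called with the mimic were 1, and 2 (Zfp36 and Zfp36l2) after quantile normalization and without mimic 3 and inhibitor 1, with a range of 1 to 2 over fits with an array left out. With the inhibitor they were 4, against 1 (Zfp36) at 1.5-fold and 3 to 5 with an array left out, and between mimic and inhibitor 4, against 0 at 1.5-fold and 2 (without inhibitor 1) to 5. The cause of these moves was not tested, apart from the stricter rule on size at 1.5-fold. Zfp36 was called against the controls under all 19 alternatives in both comparisons, with log2 differences of -0.67 to -0.55 with the mimic and -0.66 to -0.54 with the inhibitor.

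The differences whose direction turned were near 0 and were not called. After quantile normalization the log2 difference of Tia1 with the inhibitor was -0.0337, that of Tial1 -0.0034, and those of Zfp36 and Tia1 between mimic and inhibitor 0.0591 and 0.0009. After median centring Zfp36l1 with the inhibitor stood at 0.0213. Without mimic 3 and inhibitor 1 Tia1 stood at 0.0065 with the mimic, -0.0067 with the inhibitor and 0.0131 between them, Zfp36l1 at 0.0223 with the inhibitor, and Zfp36 at 0.0362 between mimic and inhibitor. With an array left out, Tia1 ran between -0.1607 and 0.0065 with the mimic and between -0.0067 and 0.1122 with the inhibitor, Zfp36l1 with the inhibitor between -0.052 and 0.069, and Zfp36 between mimic and inhibitor between -0.0586 and 0.0315.

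Arrays with the same replicate number did not deviate together from their group means (correlations of -0.59 to 0.22 over 9 pairs, against -0.59 to 0.64 over 18 pairs of unlike number, across genes), and 2 of 9 arrays correlated best with their own number, so the numbers were not taken to pair the arrays. With the replicate block 280 genes were called with the mimic, 1565 with the inhibitor and 2991 between them, the members called were 1, 4 and 4, and in the last comparison Zfp36l2 (adjusted p = 0.0446) was called and Zfp36l1 (0.0758) was not. Among the genes named outside the members, the block ended the calls of Ccng2 and Map2k6 with the mimic (adjusted p = 0.0633 and 0.0636) and of Exosc9 with the inhibitor (0.0615). A level filter at the percentile over genes (3.86), chosen after seeing the data, gave 425, 1780 and 3204 genes and the same numbers of members.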
